A study of Homo sapiens with 6 samples.

Results

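The mRNAs of 48 α-ketoglutarate (α-KG)-dependent dioxygenases and their close relatives were examined in 67R cells with and without knockdown of BCAT1, the cytosolic transaminase that exchanges branched-chain amino acids and α-KG for their keto acids and glutamate. The members were taken by gene name from the 60664 genes of the expression table: 15 Jumonji-C (JmjC) histone demethylases (the KDM2/7, KDM3, KDM4 and KDM5 families), 5 small JmjC proteins, the TET enzymes, the AlkB family with FTO, the collagen prolyl and lysyl hydroxylases, and several further hydroxylases. All 48 were in the table, and 46 reached a mean of at least 1 TPM (a transcript abundance normalized both to the length of the gene and to the library's total) over the 6 libraries, with a mean of at least 1 TPM in each group. 67R cells are human NCI-H1975 lung adenocarcinoma cells, which carry an activating and a gatekeeper mutation of EGFR, made resistant to the third-generation EGFR inhibitor ASK120067. Transfection was with a control siRNA that targets no gene (siNC, 3 libraries) or with siRNA against BCAT1 (siBCAT1, 3 libraries), and stranded mRNA libraries were sequenced. The methods give a pair of siRNA target sequences for BCAT1 and use the plain name siBCAT1, as these libraries have it, for the second. The time from transfection to harvest is not given in the sources used here. The labels do not say whether the 3 libraries of a group came from separate cultures, and the methods speak of independent experiments only in general, so the p-values below measure the spread between these libraries, which may be technical.

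These enzymes share a reaction. Iron in the active site activates oxygen, α-KG is split to succinate and carbon dioxide, and the substrate is hydroxylated. Hydroxylation of a methyl group makes it fall off, so the JmjC enzymes demethylate histone lysines, FTO and ALKBH5 demethylate RNA, and the TET enzymes oxidise methylated cytosine in DNA. Hydroxylation of proline or lysine in new collagen chains makes their triple helix stable and allows cross-links. The study examined α-KG as the link from BCAT1 to histone demethylation, and the question here was how far the mRNAs of the enzymes that use α-KG differed between the groups. The libraries hold mRNA levels only, so they carry no measure of α-KG, of enzyme activity or of any methyl mark.

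BCAT1 itself (ENSG00000060982) was at 42.7, 42.2 and 29.8 TPM in the siNC libraries and at 8.78, 7.10 and 8.0 TPM in the siBCAT1 libraries. The groups were far apart, with a log2 fold change (siBCAT1 against siNC) of -2.12 (standard error 0.15, limma, adjusted p = 0.000272). The TPM sums lay between 992512 and 995593, and between 23152 and 25043 genes per library were above 0. Total depth is unknown from TPM. Of the 9 markers of lung epithelium and adenocarcinoma, the keratins were abundant, whereas NKX2-1, NAPSA and SFTPB, which define the lung lineage, were below 1 TPM in every library. The summed level of these 9 markers was 2546 to 2948 TPM in siNC against 1648 to 1936 TPM in siBCAT1 libraries. Of the 6 tested, 5 were lower in siBCAT1 cells at an adjusted p under 0.05 (83.3%, against 10.4% of all genes tested). They were CDH1 (log2 fold change -2.41) and the keratins KRT7, KRT8, KRT18 and KRT19 (-1.41 to -0.33). EPCAM went the other way and was not called (0.56, adjusted p = 0.0732). Of the fibroblast markers, DCN and LUM were listed at 0, COL1A1 fell from 15.8 ± 3.15 to 9.41 ± 1.04 TPM (log2 fold change -0.68, adjusted p = 0.0197) and COL1A2, the most abundant, was not called (-0.21, adjusted p = 0.170), and the summed level of the 5 was 248 to 267 TPM in siNC against 187 to 243 TPM in siBCAT1 libraries. The leukocyte markers summed to 29.1 to 37.0 and 52.5 to 60.0 TPM, nearly all of it CD68, with CD3E at 0. The endothelial markers summed to 0.740 to 0.880 and 0.900 to 2.61 TPM. The part of these differences in the results below was not tested. All libraries came from the same cultured tumour line, so the fibroblast, leukocyte and endothelial markers do not count cells of those types. Among the cells of the line, bulk RNA cannot tell fewer cells expressing a gene from less of its RNA per cell.

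The groups were compared with limma on log2(TPM + 1) values of the 14286 genes whose mean reached 1 TPM, and every adjusted p is from that fit with Benjamini-Hochberg adjustment over all of them. Genes with an adjusted p under 0.05 are described as called, and a log2 fold change is siBCAT1 minus siNC, given with its standard error (SE). Means are followed by ± the SD over the 3 libraries of the group throughout. Of the 46 members tested, 18 were called (39.1%), where 27.1% of all genes tested were. Of these, 13 were higher in siBCAT1 cells (28.3% of the members, against 16.7% of all genes) and 5 were lower (10.9%, against 10.4% of all genes). The share of members that rose was thus above that of all genes, and the share that fell was near it. Under quantile normalization 10 members were higher (21.7%, against 14.3% of all genes) and 7 lower (15.2%, against 13.1%). The counts moved with single libraries. Without siBCAT1 replicate 3, 6 members were higher (13.0%, against 11.1% of all genes), and without siBCAT1 replicate 2, 7 were (15.2%, against 10.8%), so the excess was small there. Without siNC replicate 1 or 3, 8 were higher (17.4%, against 10.7% in each case). Without siNC replicate 1 or 3 or siBCAT1 replicate 1 or 2, 1 member was lower (2.17%, against 5.57 to 6.87% of all genes). With no filter on low values, where all 48 members entered, 8 were higher (16.7%, against 5.04% of all genes) and 2 lower (4.17%, against 3.01%). There the genes under a mean of 1 TPM joined the background, whereas 46 of the 48 members were above it. The shares under that setting therefore do not compare genes of like level. The groups did not overlap for 27 members (58.7%), where 44.1% of all genes did not. The median log2 fold change was 0.09 over the members and 0.04 over all genes tested. Summed over all 48 members, the level was 1741, 1707 and 1674 TPM in siNC replicates 1, 2 and 3 and 1908, 1875 and 1835 TPM in siBCAT1 replicates 1, 2 and 3.

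**Figure D1:**
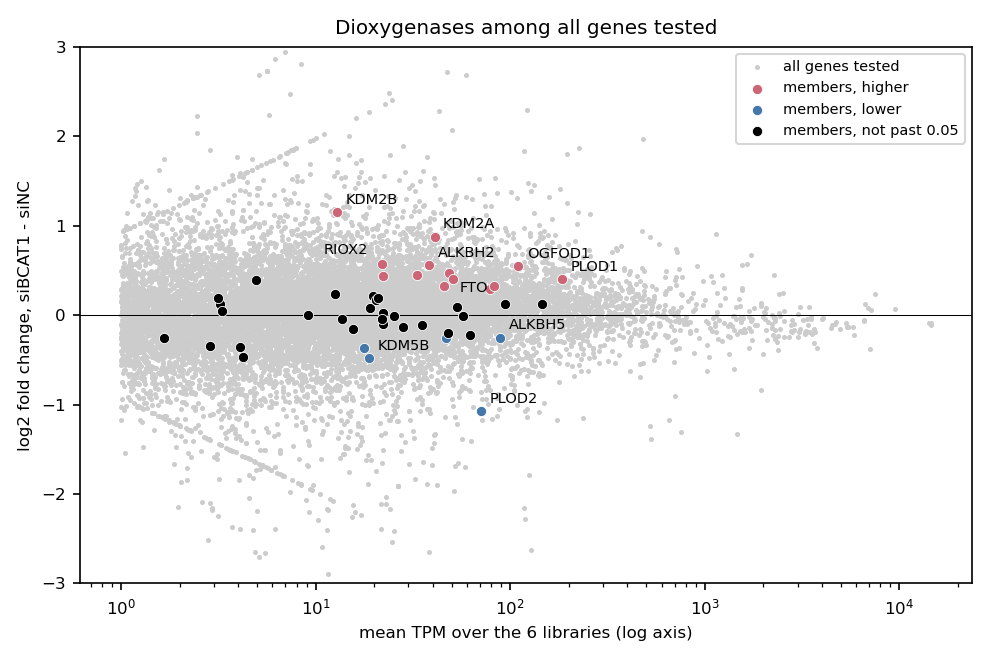
Log2 fold change (siBCAT1 minus siNC, on log2(TPM + 1)) of each gene against its mean TPM over the 6 libraries (log axis), with all 14286 genes tested in grey, the called members in red (higher) and blue (lower) and the other members in black; 23 genes beyond 3 in either direction are outside the plot. KDM2B (1.15), KDM2A (0.88) and PLOD2 (-1.07) lie furthest from 0 among the members.

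Among the members the changes went in both directions within most substrate classes. KDM2B, KDM2A, ALKBH2, FTO, PLOD1 and P3H1 among the higher members and PLOD2 among the lower ones were past the threshold under all 15 alternative ways of processing. The other 11 called members were lost under at least 1 of them, with none turning direction. The threshold on the mean fell in a wide gap. KDM7A was just inside it, at a mean of 1.66 TPM, and TET1 just outside, at 0.263 TPM. TMLHE, which opens carnitine synthesis, was the other low member, between 0 and 0.14 TPM in the 6 libraries.

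**Figure D2:**
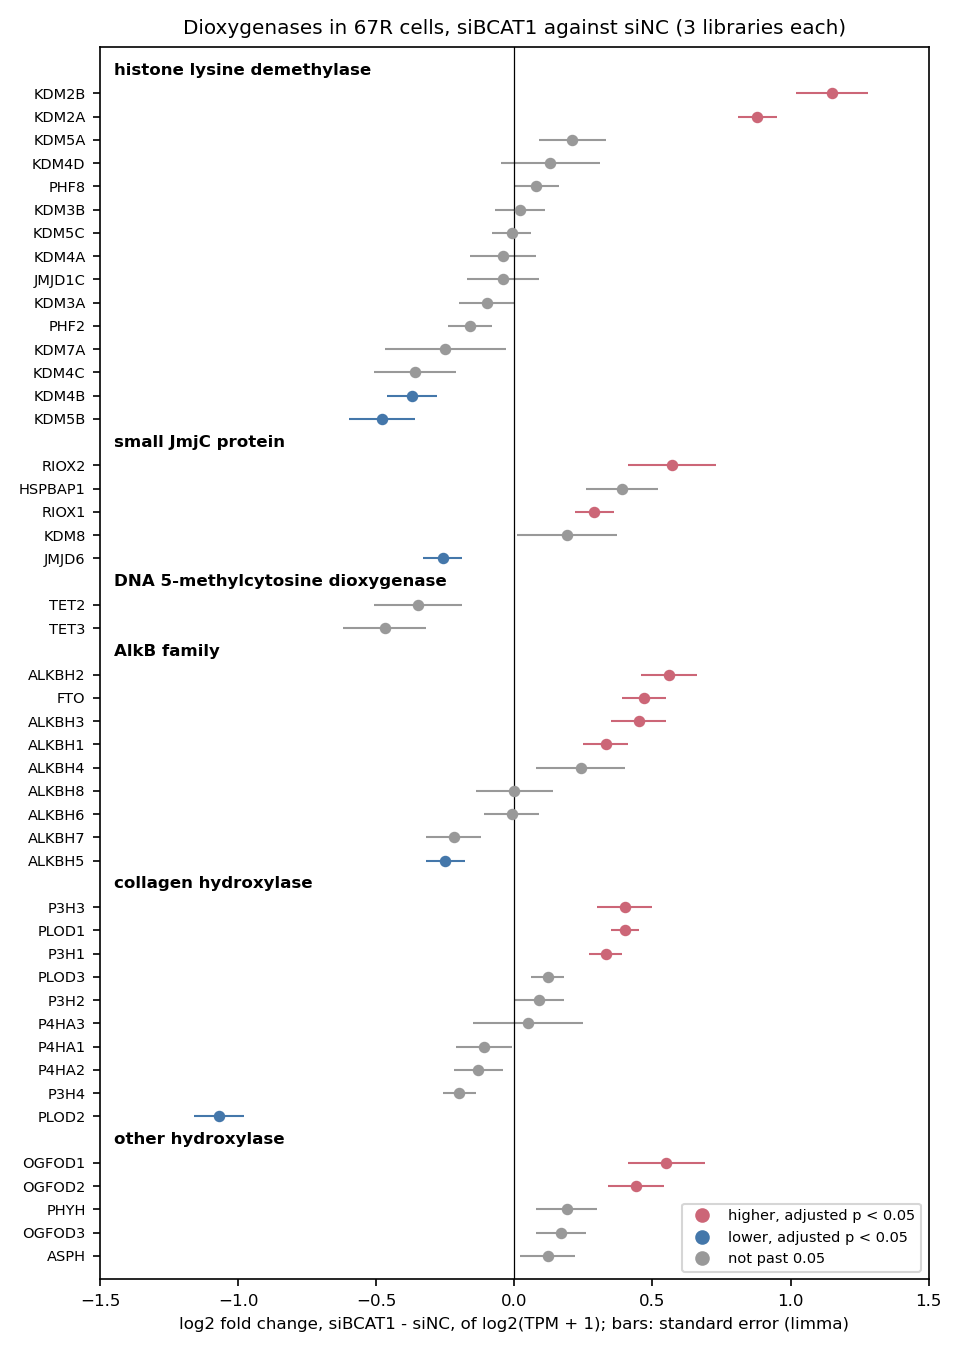
Log2 fold change (siBCAT1 minus siNC) of the 46 members tested, by substrate class, with limma's standard error as bars; red points are higher and blue points lower at an adjusted p under 0.05. Most classes hold points on both sides of 0, from -1.07 for PLOD2 to 1.15 for KDM2B.

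The promoters of some members are shown first, because 7 of the 48 (KDM3A, KDM4B, KDM4C, P4HA1, P4HA2, PLOD1 and PLOD2) are known from earlier work as targets of the hypoxia-inducible factors, and their values below went different ways. These factors bind a short core, which reads ACGTG or GCGTG. Both were searched on both strands in the RefSeq promoter windows (GRCh38.p14, 250 bases before to 50 bases after each start), where an entry was found for 42 members. Of all 35116 windows, 21.4% hold ACGTG, 36.5% hold GCGTG and 48.4% hold either. At least 1 window held ACGTG for 4 of the 7 hypoxia-inducible members (57.1%) and for 8 of the 35 other members with an entry (22.9%). With either core counted, the shares were 6 of 7 (85.7%) and 24 of 35 (68.6%). These shares are per gene, and some genes have several windows, so they are not in the unit of the shares of all windows. P4HA2 had no match, which says only that these letters are not in the window searched. The windows below run 5′ to 3′ on the strand of the gene, with each match in capitals, and lie at chr1:11934467-11934766 on the plus strand (PLOD1), chr3:146161135-146161434 on the minus strand (PLOD2), chr19:4968863-4969162 on the plus strand (KDM4B), chr9:6757723-6758022 on the plus strand (KDM4C) and chr10:73096817-73097116 on the minus strand (P4HA1).
PLOD1: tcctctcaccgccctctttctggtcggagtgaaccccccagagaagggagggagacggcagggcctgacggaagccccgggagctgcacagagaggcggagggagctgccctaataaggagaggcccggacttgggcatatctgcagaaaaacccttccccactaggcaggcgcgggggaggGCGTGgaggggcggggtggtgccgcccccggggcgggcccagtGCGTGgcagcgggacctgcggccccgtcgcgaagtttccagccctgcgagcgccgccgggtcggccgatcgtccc
PLOD2: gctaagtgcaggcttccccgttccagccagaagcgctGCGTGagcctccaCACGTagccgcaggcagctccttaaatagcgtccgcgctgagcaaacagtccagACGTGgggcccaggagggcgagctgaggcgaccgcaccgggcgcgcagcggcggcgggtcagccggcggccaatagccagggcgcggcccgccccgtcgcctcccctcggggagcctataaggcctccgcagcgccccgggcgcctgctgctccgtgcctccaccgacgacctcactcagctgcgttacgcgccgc
KDM4B: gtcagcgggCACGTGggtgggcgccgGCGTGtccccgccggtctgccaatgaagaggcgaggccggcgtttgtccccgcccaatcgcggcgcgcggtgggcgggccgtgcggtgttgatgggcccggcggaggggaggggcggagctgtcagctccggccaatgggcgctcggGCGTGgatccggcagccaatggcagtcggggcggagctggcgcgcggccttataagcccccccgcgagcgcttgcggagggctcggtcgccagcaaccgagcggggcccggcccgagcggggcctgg
KDM4C: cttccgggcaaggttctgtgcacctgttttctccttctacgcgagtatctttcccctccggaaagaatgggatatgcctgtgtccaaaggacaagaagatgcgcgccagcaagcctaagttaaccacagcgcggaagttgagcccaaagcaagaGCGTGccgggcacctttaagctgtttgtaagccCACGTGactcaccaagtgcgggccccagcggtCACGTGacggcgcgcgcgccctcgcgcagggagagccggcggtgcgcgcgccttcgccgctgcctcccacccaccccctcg
P4HA1: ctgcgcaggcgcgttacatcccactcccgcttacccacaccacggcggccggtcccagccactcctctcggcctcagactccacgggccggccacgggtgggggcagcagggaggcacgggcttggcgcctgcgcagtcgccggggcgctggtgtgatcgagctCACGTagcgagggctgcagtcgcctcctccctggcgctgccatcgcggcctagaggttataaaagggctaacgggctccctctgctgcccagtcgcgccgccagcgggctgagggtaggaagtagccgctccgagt
Counted from the RefSeq start, the stretches in capitals begin 68 and 25 bases before it in PLOD1, both GCGTG. In PLOD2 they begin 213 bases before it (GCGTG) and 200 and 146 bases before it (ACGTG on either strand), and in P4HA1 86 bases before it (ACGTG on the opposite strand). KDM4B has the palindrome CACGTG 241 bases before the start, and KDM4C has it 63 and 31 bases before the start, so that each of these stretches matches on both strands, and both genes hold GCGTG as well. PLOD1 and PLOD2, members of the same family, thus each hold a core in this window, in PLOD1 only in the GCGTG form.

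Collagen modification held the furthest falling member. PLOD2 (chromosome 3, 146069440 to 146163653 in GRCh38, minus strand), the lysyl hydroxylase that acts on the ends of collagen chains and so sets the type of cross-link, was at 109, 94.8 and 86.4 TPM in siNC libraries and at 46.6, 45.6 and 43.7 TPM in siBCAT1 libraries. Each siBCAT1 library was well under the lowest siNC library, and the log2 fold change was -1.07 (SE 0.09, adjusted p = 0.000478). PLOD1 (chromosome 1, 11934205 to 11975538, plus strand), which hydroxylates lysines within the helix, went the other way. It was at 158, 156 and 165 TPM in the siNC libraries and at 220.1, 207 and 205 TPM in siBCAT1 libraries, a log2 fold change of 0.40 (SE 0.05, adjusted p = 0.00242). PLOD3, which also adds sugars to the hydroxylysines, was at 139, 134 and 143 TPM in the siNC libraries and at 154, 143 and 154 TPM in siBCAT1 libraries. Its groups did not overlap by a narrow margin, and its log2 fold change of 0.12 was not past the threshold (adjusted p = 0.177), with a sign that turned under quantile normalization.

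Because TPM is scaled for gene length, the levels of family members can be set side by side. PLOD2 made up 26.9, 24.6 and 21.9% of the summed TPM of the lysyl hydroxylases in siNC libraries and 11.1, 11.5 and 10.8% in siBCAT1 libraries. The share of PLOD1 was 40.4 ± 1.54% in siNC and 51.8 ± 0.864% in siBCAT1 cells, and that of PLOD3 was 35.1 ± 1.02% and 37.0 ± 1.14%. The sum of the family hardly differed, at 396 ± 10.8 and 407 ± 12.6 TPM, with overlapping groups. The ratio of PLOD2 to PLOD1, which does not depend on the scaling of a library, was 0.694, 0.606 and 0.523 in siNC libraries and 0.212, 0.220 and 0.213 in siBCAT1 libraries. The mix of lysyl hydroxylase mRNAs thus differed between the groups while their sum stayed in the same range.

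**Figure D3:**
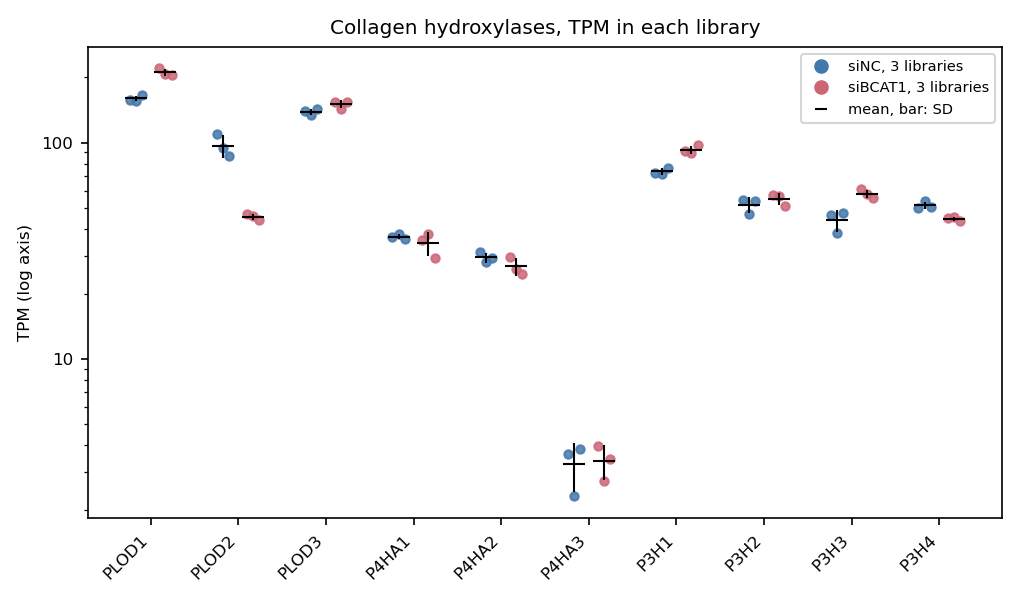
TPM (log axis) of the 10 collagen hydroxylases in each of the 6 libraries, siNC in blue and siBCAT1 in red, with the mean and SD in black. PLOD2 lies at 43.7 to 46.6 TPM in siBCAT1 and at 86.4 to 109 TPM in siNC libraries, whereas the P4HA genes overlap between the groups.

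The α subunits of collagen prolyl 4-hydroxylase, which carry the active site and pair with P4HB, were at like levels in both groups, and none was called. P4HA1 was at 36.7, 37.8 and 35.7 TPM in the siNC libraries and at 35.3, 37.8 and 29.4 TPM in siBCAT1 libraries (log2 fold change -0.11, SE 0.10, adjusted p = 0.466). P4HA2 was at 31.2, 28.0 and 29.1 TPM in the siNC libraries and at 29.6, 26.1 and 24.7 TPM in siBCAT1 libraries (-0.13, SE 0.09, adjusted p = 0.319). P4HA3, the scarce isoform, was at 3.62, 2.32 and 3.85 TPM and at 3.96, 2.74 and 3.44 TPM. All 3 genes overlapped between the groups. P4HA1 made up 52.9 ± 2.21% of the family sum in siNC and 53.0 ± 3.24% in siBCAT1 cells, so that the composition of this family was nearly the same where that of the lysyl hydroxylases was not, a contrast between families that was not itself tested.

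Of the prolyl 3-hydroxylase family, P3H1 and P3H3 rose. P3H1, which works in a complex with CRTAP and PPIB, went from 73.5 ± 2.60 to 92.6 ± 4.12 TPM, a log2 fold change of 0.33 (SE 0.06, adjusted p = 0.00876). P3H3 went from 43.8 ± 5.09 to 58.0 ± 2.59 TPM, with a log2 fold change of 0.40 (SE 0.10, adjusted p = 0.0215), and GPR162 overlaps it on the same strand, so reads may be shared. Its call ended without siNC replicate 1 or without any single siBCAT1 replicate (adjusted p 0.0524 to 0.0802), and with no filter on low values (0.0561). P3H4, a relative without enzyme activity that assists lysyl hydroxylation, stood on the other side at 51.3 ± 2.0 and 44.5 ± 0.943 TPM, just short of the threshold (log2 fold change -0.20, adjusted p = 0.0534). It passed with a minimum of 5 TPM (0.0487), with the replicate block (0.0454) and under quantile normalization (0.0155). P3H2 was at 51.7 ± 4.24 and 55.1 ± 3.47 TPM with overlapping groups. The sum of the family was 220.3 ± 9.39 TPM in siNC against 250.2 ± 3.65 TPM in siBCAT1 cells.

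Of the 17 proteins listed as partners in collagen maturation, 15 were tested, and 5 were higher (33.3%, against 16.7% of all genes) and 3 lower (20.0%, against 10.4%). The higher ones were P4HB (log2 fold change 0.49), the collagen chaperone SERPINH1 (0.44), the glycosyltransferase COLGALT1 (0.44), FKBP10 (0.36) and PPIB (0.33). The lower ones were the cross-linking oxidases LOX (-1.56) and LOXL2 (-0.48) and the procollagen protease BMP1 (-0.56), with an adjusted p between 0.000286 and 0.0117 over these 8 genes. The oxidases LOXL1 (0.11) and LOXL3 (0.18), the protease ADAMTS2 (0.12) with the protease enhancer PCOLCE (-0.94), and the endoplasmic reticulum proteins CRTAP (0.14), FKBP14 (0.32) and FKBP7 (0.43) were not called. LOX, whose substrates include the hydroxylysines made by PLOD2, went from 21.4 ± 2.10 to 6.62 ± 0.758 TPM.

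Of the 15 histone lysine demethylases, all tested, 2 rose and 2 fell, a share (26.7%) close to that of all genes. The rises were of a pair of close relatives. KDM2A (chromosome 11, 67119269 to 67258087, plus strand), which removes methyl groups from lysine 36 of histone H3 and binds unmethylated CpG DNA, was at 29.2, 29.4 and 27.0 TPM in the siNC libraries and at 56.7, 52.8 and 51.0 TPM in siBCAT1 libraries. Its log2 fold change was 0.88 (SE 0.07, adjusted p = 0.000421). KDM2B (chromosome 12, 121429097 to 121581015, minus strand), which has the same DNA-binding domain and brings a Polycomb complex to CpG islands, was at 8.40, 8.36 and 6.26 TPM in the siNC libraries and at 19.2, 17.2 and 18.1 TPM in siBCAT1 libraries. With a log2 fold change of 1.15 (SE 0.13, adjusted p = 0.00110) it rose furthest of all members. The lowest siBCAT1 library was above the highest siNC library by a wide margin for each of the pair. Over all alternatives the log2 fold change lay between 0.80 and 0.92 for KDM2A and between 1.03 and 1.24 for KDM2B.

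The relatives of this pair did not follow. PHF8 was at 18.4 ± 1.33 and 19.5 ± 0.305 TPM, PHF2 at 16.5 ± 0.905 and 14.7 ± 0.550 TPM, and KDM7A at 1.89 ± 0.478 and 1.44 ± 0.436 TPM in siNC and siBCAT1 cells, and none of the 3 was called. KDM2A and KDM2B together made up 51.0, 50.8 and 46.9% of the summed TPM of these 5 genes in siNC libraries and 67.8, 66.5 and 65.9% in siBCAT1 libraries. Their family sum was 73.1 ± 1.79 TPM in siNC against 107 ± 3.99 TPM in siBCAT1 cells. The summed level of all 15 histone demethylases was 280.0 ± 8.98 TPM and 302 ± 14.9 TPM in the respective groups, a difference smaller than that of the KDM2/7 family alone.

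KDM5B and KDM4B fell. KDM5B, which removes methyl groups from lysine 4 of histone H3, was at 24.2, 19.1 and 23.3 TPM in the siNC libraries and at 15.7, 14.1 and 16.9 TPM in siBCAT1 libraries (log2 fold change -0.48, SE 0.12, adjusted p = 0.0214). KDM4B, a demethylase of lysine 9, was at 22.4, 18.4 and 19.9 TPM in the siNC libraries and at 15.7, 15.4 and 15.1 TPM in siBCAT1 libraries (-0.37, SE 0.09, adjusted p = 0.0256). The groups were apart for each, but the calls rested on the full set of libraries. That of KDM4B ended without any single library other than siNC replicate 2 (adjusted p 0.0698 to 0.0798), and that of KDM5B without siNC replicate 1 or 3 or siBCAT1 replicate 1 or 2 (0.0695 to 0.0871). Each also ended with no filter on low values (0.0544 for KDM4B and 0.0578 for KDM5B).

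Within the KDM5 family, KDM5C was the most abundant, at 57.1 ± 1.24 TPM in siNC against 56.8 ± 3.43 TPM in siBCAT1 cells, and KDM5A was at 18.4 ± 2.91 and 21.3 ± 1.11 TPM, with neither called. KDM4C had all its siBCAT1 libraries under all its siNC libraries, at 4.75 ± 0.765 against 3.47 ± 0.311 TPM, and was not called (log2 fold change -0.36, adjusted p = 0.120), although it passed with the correction for GC content and length (0.0449). KDM4A and KDM4D overlapped between the groups. The KDM3 family, which demethylates lysine 9 as well, had no member called: KDM3A, KDM3B and JMJD1C had log2 fold changes of -0.10, 0.02 and -0.04 (adjusted p between 0.504 and 0.908), and all 3 overlapped. Their levels were close to each other, at 22.9 ± 1.28, 22.0 ± 1.39 and 22.3 ± 2.98 TPM in siNC cells, and their order within that group does not exceed the spread.

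**Figure D4:**
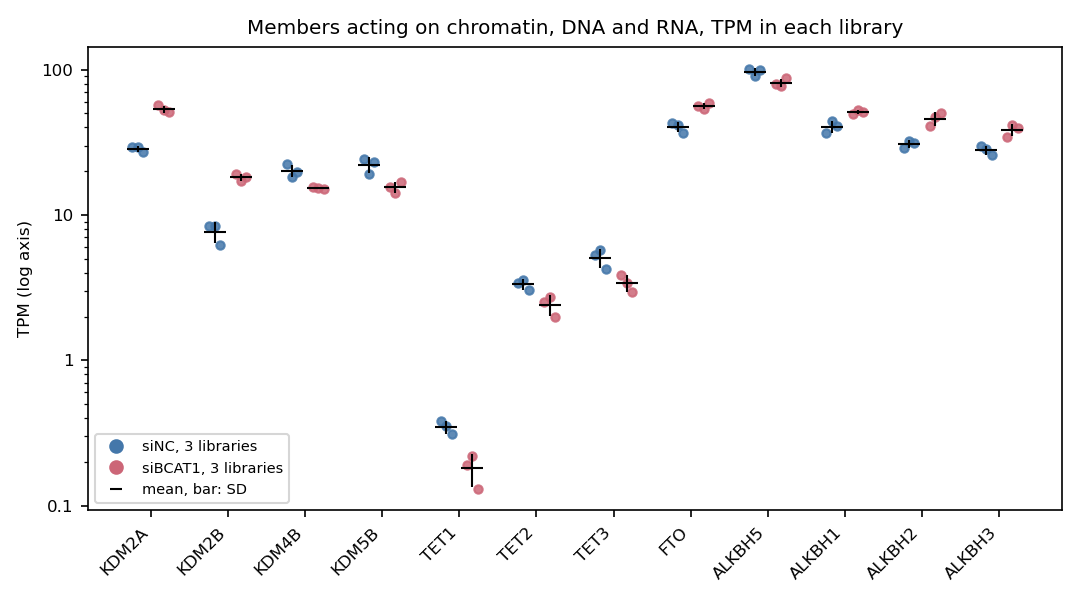
TPM (log axis) of 12 members that act on chromatin, DNA or RNA in each of the 6 libraries, siNC in blue and siBCAT1 in red, with the mean and SD in black. KDM2A, KDM2B, FTO and ALKBH1 to ALKBH3 are higher in every siBCAT1 library, and KDM4B, KDM5B, ALKBH5 and the TET genes lower, the last without passing the threshold.

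The TET enzymes were expressed weakly, and none was called. TET3 was at 5.27, 5.72 and 4.26 TPM in the siNC libraries and at 3.84, 3.40 and 2.95 TPM in siBCAT1 libraries (log2 fold change -0.47, SE 0.15, adjusted p = 0.0585). TET2 was at 3.41, 3.59 and 3.04 TPM in the siNC libraries and at 2.51, 2.74 and 1.99 TPM in siBCAT1 libraries (-0.35, SE 0.16, adjusted p = 0.136). TET1, which was under the minimum of 1 TPM and so not tested, was at 0.38, 0.35 and 0.31 TPM and at 0.19, 0.22 and 0.13 TPM. For each of the 3 genes every siBCAT1 library was under every siNC library, where the groups did not overlap for 44.1% of all genes tested. The sum of the family was 9.06, 9.66 and 7.61 TPM in siNC and 6.54, 6.36 and 5.07 TPM in siBCAT1 libraries. TET3 passed the threshold under 4 of 14 alternatives (adjusted p over all of them 0.0343 to 0.161), and TET2 under none. Those 4 were the replicate block (0.0389), median-ratio scaling (0.0343), quantile normalization (0.0466) and eBayes without trend (0.0454). TET3 and TET2 held like shares of the family in both groups, 57.8 ± 1.65 and 56.8 ± 2.89% for TET3. Of the enzymes that write or keep the mark they oxidise, DNMT1 rose (log2 fold change 0.29, adjusted p = 0.0246), and DNMT3A, DNMT3B and UHRF1 were not called. Under the alternatives the opposing writers listed below were followed as counts, not gene by gene. The higher ones, DNMT1 among them, numbered 3. They numbered 2 with no filter on low values, under median-ratio scaling, under quantile normalization and with eBayes without trend. The number was also 2 without any single library other than siNC replicate 2. It was 5 without siNC replicate 2 and with the replicate block, and 4 with the correction for GC content and length, alone or with the block. These counts do not say whether DNMT1 was among the calls lost.

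The AlkB family had 5 of its 9 members called (55.6%, against 27.1% of all genes), 4 of them higher (44.4%, against 16.7%), and 3 of the 5 calls (ALKBH1, ALKBH3 and ALKBH5) were lost on leaving out single libraries. ALKBH2 and ALKBH3, which remove alkyl damage from DNA directly, were both among the 4 higher members. ALKBH2 was at 28.8, 32.3 and 31.3 TPM in the siNC libraries and at 40.6, 47.0 and 50.7 TPM in siBCAT1 libraries (log2 fold change 0.56, SE 0.10, adjusted p = 0.00634). ALKBH3 was at 29.7, 28.3 and 25.7 TPM in the siNC libraries and at 34.5, 41.8 and 39.4 TPM in siBCAT1 libraries (0.45, SE 0.10, adjusted p = 0.0138). The groups were apart for each of these. ALKBH1, which acts on transfer RNA, went from 40.6 ± 3.81 to 51.2 ± 1.63 TPM (log2 fold change 0.33, adjusted p = 0.0257). ALKBH3 lost its call without siNC replicate 3 or siBCAT1 replicate 2 or 3 (adjusted p 0.0513 to 0.0546), and ALKBH1 without any single library other than siNC replicate 2 (0.0635 to 0.0876). ALKBH1 also lost it under median-ratio scaling (0.0762), quantile normalization (0.0783), the correction for GC content and length (0.0850) and no filter on low values (0.0558).

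The enzymes that remove N6-methyladenosine from mRNA went opposite ways. FTO (chromosome 16, 53701692 to 54158512, plus strand) was at 43.2, 41.5 and 36.6 TPM in the siNC libraries and at 56.3, 53.7 and 59.2 TPM in siBCAT1 libraries, a log2 fold change of 0.47 (SE 0.08, adjusted p = 0.00670). ALKBH5 (chromosome 17, 18183078 to 18209954, plus strand), the more abundant of the pair, was at 101, 90.2 and 98.8 TPM in the siNC libraries and at 79.9, 77.3 and 87.0 TPM in siBCAT1 libraries (-0.25, SE 0.07, adjusted p = 0.0441). The groups did not overlap for either gene. The ratio of FTO to ALKBH5 was 0.426, 0.460 and 0.370 in siNC libraries and 0.704, 0.694 and 0.681 in siBCAT1 libraries, and their sum was 137 ± 6.61 and 138 ± 7.71 TPM. FTO stayed past the threshold under all alternatives, whereas ALKBH5 lost its call under 7 of 15, among them leaving out siNC replicate 1 or 3 or siBCAT1 replicate 1 or 2 (adjusted p 0.119 to 0.130). The annotation lists a pseudogene of FTO, with which reads could be shared. Of the 7 components of the methyltransferase complex that writes this mark, METTL3, its catalytic subunit, rose (log2 fold change 0.45, adjusted p = 0.00781) and the scaffold VIRMA fell (-0.50, adjusted p = 0.00664). METTL14, WTAP, RBM15, ZC3H13 and CBLL1 were not called (adjusted p 0.0856 to 0.780). Of all genes tested, 27.1% were called.

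**Figure D5:**
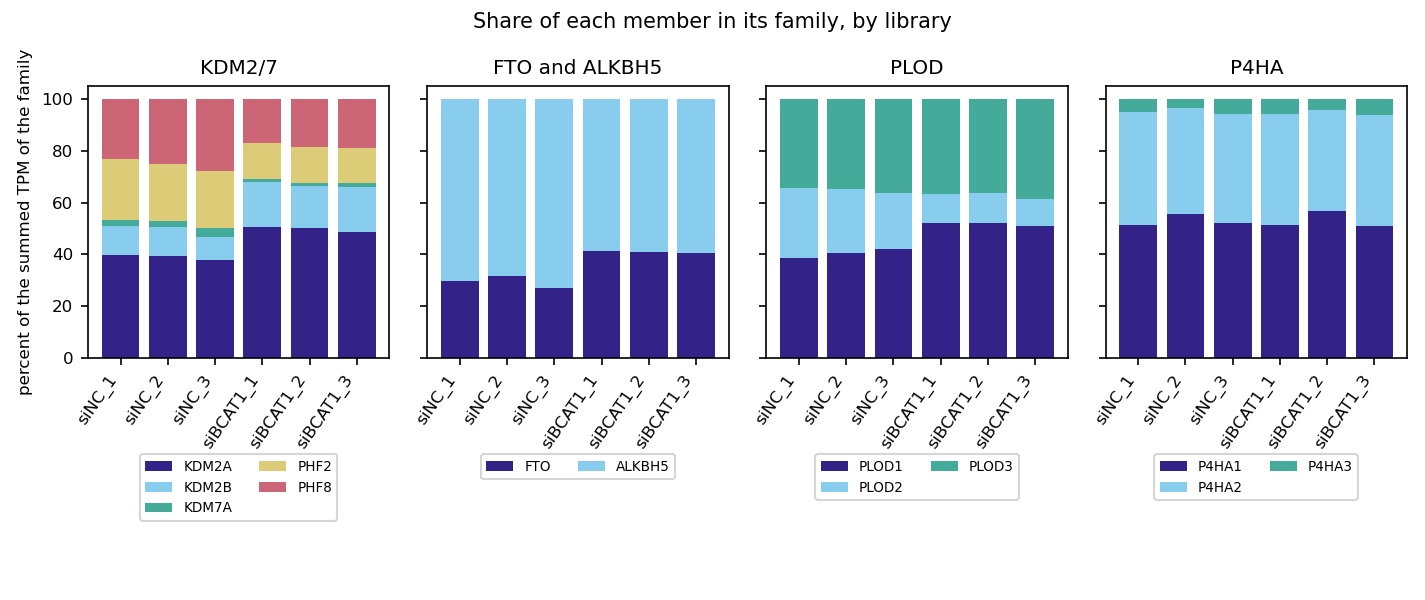
Share of each member in the summed TPM of its family, in percent, for each of the 6 libraries and 4 families. KDM2A with KDM2B, FTO and PLOD1 take a larger share in the siBCAT1 libraries and PLOD2 a smaller one (10.8 to 11.5% against 21.9 to 26.9%), while the P4HA shares stay alike.

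The other AlkB members were not called. ALKBH7, a mitochondrial protein, was lower in every siBCAT1 library (66.8 ± 0.860 and 57.4 ± 7.38 TPM; adjusted p = 0.137). ALKBH4, ALKBH6 and ALKBH8 had log2 fold changes of 0.24, -0.01 and 0.00 and overlapping groups. Within siNC cells the order of the AlkB levels ran from ALKBH5 (96.8 ± 5.85 TPM) over ALKBH7 (66.8 ± 0.860 TPM) to ALKBH1 and FTO (40.6 ± 3.81 and 40.4 ± 3.43 TPM), which did not differ beyond their spread, and down to ALKBH8 (9.18 ± 1.61 TPM).

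The small JmjC proteins hydroxylate other proteins. RIOX2, a histidine hydroxylase of a ribosomal protein, was at 18.8, 19.1 and 14.4 TPM in the siNC libraries and at 21.4, 29.8 and 28.1 TPM in siBCAT1 libraries (log2 fold change 0.57, SE 0.16, adjusted p = 0.0335). RIOX1, which does the same to another ribosomal protein, went from 70.5 ± 4.67 to 86.5 ± 1.54 TPM (0.29, adjusted p = 0.0175). JMJD6, a lysyl hydroxylase of splicing factors, fell from 50.3, 50.7 and 52.3 TPM to 40.5, 42.4 and 44.6 TPM (-0.26, SE 0.07, adjusted p = 0.0256). The groups were apart for all 3, although siBCAT1 replicate 1 of RIOX2 lay closer to the siNC libraries than to the others of its group. HSPBAP1 was higher in every siBCAT1 library (4.11 ± 0.304 and 5.73 ± 0.771 TPM) and short of the threshold (adjusted p = 0.0674, and 0.0477 with limma's eBayes without trend), and KDM8 overlapped. The calls ended for RIOX2 without siNC replicate 1 or 3 or siBCAT1 replicate 2 or 3 (adjusted p 0.0808 to 0.119), for RIOX1 without siNC replicate 3 or siBCAT1 replicate 1 or 3 (0.0515 to 0.0602) and for JMJD6 without siNC replicate 1 or 3 or siBCAT1 replicate 1 or 2 (0.0597 to 0.0736). That of RIOX2 also ended under quantile normalization (0.0507), with eBayes without trend (0.0548) and with no filter on low values (0.0972), that of RIOX1 under quantile normalization (0.0575) and that of JMJD6 with the correction for GC content and length (0.0534). HEATR4 and CRYBG3 overlap RIOX1 and RIOX2 on the opposite strand, and whether the counting used the strand is not given in the sources used here. The same limit holds for other members, among them KDM2B (RNF34), FTO (RPGRIP1L), OGFOD1 (BBS2 and NUDT21), OGFOD2 (ABCB9) and PLOD3 (ZNHIT1).

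Of the remaining hydroxylases, OGFOD1 and OGFOD2 rose. OGFOD1, which hydroxylates a proline of a protein of the small ribosomal subunit, was at 82.7, 112 and 75.6 TPM in the siNC libraries and at 129, 135 and 128 TPM in siBCAT1 libraries (log2 fold change 0.55, SE 0.14, adjusted p = 0.0244). OGFOD2 was at 17.5, 18.1 and 20.5 TPM in the siNC libraries and at 23.3, 28.4 and 25.2 TPM in siBCAT1 libraries (0.44, SE 0.10, adjusted p = 0.0202). The siNC libraries of OGFOD1 spread widely, with replicate 2 closest to the siBCAT1 level. The call of OGFOD1 ended without any single library other than siNC replicate 2 (adjusted p 0.0745 to 0.102), and that of OGFOD2 without siNC replicate 1 or 2 or siBCAT1 replicate 2 or 3 (0.0518 to 0.0796). Each also ended with no filter on low values (0.0787 for OGFOD1 and 0.0510 for OGFOD2). A pseudogene of OGFOD1 and a transcript on the same strand as OGFOD2 are annotated, so their reads may be shared. ASPH, the aspartyl hydroxylase of EGF-like domains, was at 90.4 ± 7.07 and 98.9 ± 12.2 TPM, PHYH, which acts in peroxisomal fatty acid breakdown, at 19.4 ± 0.496 and 22.5 ± 3.37 TPM, and OGFOD3 at 19.1 ± 0.195 and 21.7 ± 2.05 TPM, with none called.

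The calls among the 7 hypoxia-inducible members went both ways. PLOD2 and KDM4B fell (28.6%, against 10.4% of all genes), and PLOD1 rose (14.3%, against 16.7%). KDM3A, KDM4C, P4HA1 and P4HA2 were not called, so that 42.9% were called in either direction, against 27.1% of all genes. KDM4B lost its call under 6 of 15 alternatives. The median log2 fold change of the 7 was -0.13 with 1 of them above 0. In the other members tested it was 0.12 with 26 of 39 above 0, a contrast that was not itself tested. PLOD2 and KDM4B, which fell, PLOD1, which rose, and KDM3A, KDM4C and P4HA1, which were not called, all hold a core in the promoter windows searched.

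Among 18 other dioxygenases outside the members, 15 were tested, and 2 were higher and 2 lower (26.7% called, close to the 27.1% of all genes). EGLN3, a prolyl hydroxylase of HIF that is itself induced by hypoxia, fell from 22.1 ± 0.299 to 7.34 ± 1.54 TPM (log2 fold change -1.49, adjusted p = 0.000645), and KDM6A, a demethylase of lysine 27 of histone H3, fell from 13.5 ± 0.225 to 9.62 ± 0.684 TPM (-0.45, adjusted p = 0.0104). KDM6B, which acts on the same lysine, was at 8.72 ± 1.97 and 12.7 ± 2.46 TPM with overlapping groups and was not called (0.50, adjusted p = 0.0847). JMJD4 (0.77, adjusted p = 0.000460) and ASPHD1 (0.56, adjusted p = 0.00335) rose. Of the 30 enzymes listed as opposing writers and flavin-dependent demethylases, 3 were higher and 3 lower (20.0% called, below the 27.1% of all genes). Besides those named above these were SETD1A, which rose (0.48, adjusted p = 0.00783), and SETD1B and KMT2D, which fell (-0.44 and -0.42, adjusted p = 0.0132 and 0.0392), all methyltransferases of lysine 4 of histone H3. The other methyltransferases of that lysine in the list, KMT2A (-0.05), KMT2B (-0.08) and KMT2C (-0.05), were not called. No methyltransferase of lysine 9 or of lysine 36 in the list was called.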

How the data were processed

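RNA was extracted from 67R cells, and stranded mRNA libraries were made and sequenced for 3 siNC and 3 siBCAT1 samples. Groups and replicate numbers were taken from the titles in the labels. The authors cleaned the reads (fastp is among the tools in the submitters' processing notes), mapped them with HISAT2, assembled them with StringTie and deposited TPM values, rounded to 2 decimals, for GRCh38; versions and annotation are not given in the sources used here. The unit was read from the values, which carry decimals and sum to nearly the same total in every library. Values of 2 libraries were equal for at most 1.42% of the tested genes.

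Values were transformed to log2(TPM + 1). The 14286 genes whose mean reached 1 TPM entered the test (limma 3.58.1, R 4.3.3, eBayes with trend, two-sided, Benjamini-Hochberg adjustment, threshold 0.05). Members were counted by class, with no set test. The members and lists were chosen with earlier results of these data known. All members tested were named. Values in every library were given for the members called by the largest differences (up to 8 in each direction) and for the TET, FTO with ALKBH5, P4HA and PLOD genes. Positions and overlaps are from GENCODE 29, and promoters from RefSeq; the search for GCGTG beside ACGTG was added after the data were seen. Python 3.11.15 with numpy 2.4.6, pandas 2.3.3 and matplotlib 3.10.9 was used for tables and figures.

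On simulated data with 14286 genes, 70 were changed by 0.5 on the log2 scale, 59 by 1 and 71 by 2. Shares of 0.27, 0.73 and 0.89 of these were called, with 0 in the wrong direction and 6 false calls among the unchanged genes. Far fewer genes were changed there than the 3865 called in the data. The adjusted p depends on how many genes differ, so these shares do not carry over to this comparison. The alternatives were no filter, a minimum of 5 TPM, a pseudocount of 0.1, the replicate block, median-ratio scaling, quantile normalization, eBayes without trend, leaving out each library, and, added after the data were seen, a loess correction (span 0.5) for GC content and length, known for 99% of the tested genes, alone and with the block.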

Additional observations from a re-analysis of the deposited data

How the results depend on the processing

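BCAT1 stayed lower and past the threshold in each alternative, between -2.28 and -2.03 on the log2 scale. With each library left out in turn, the number of genes called lay between 2318 and 3706 (3865 with all libraries, and at most 2503 where any library other than siNC replicate 2 was left out), that of higher members between 6 and 12 and that of lower members between 1 and 5. The opposing writers called lay between 2 and 5 for higher ones (5 without siNC replicate 2) and between 1 and 4 for lower ones (1 without siNC replicate 1), against 3 each. With no filter on low values, 2567 genes, 8 higher members (16.7%, against 5.04% of all genes) and 2 lower members (4.17%, against 3.01%) were called. The background there includes the genes under a mean of 1 TPM, so these shares do not compare genes of like level. The cause was not tested.

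Same-numbered libraries of the 2 groups deviated together weakly (correlations of 0.084, 0.102 and 0.124 across genes), and every library correlated best with its own number, but nothing in the labels says that a number marks a shared culture. With the replicate block 4568 genes were called, the count of higher opposing writers was 5, and 13 members were higher (28.3%, against 19.4% of all genes) and 7 lower (15.2%, against 12.6%).

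Among all calls the share of higher genes was 61.6%, and 54.6% under median-ratio scaling, 52.3% under quantile normalization and 54.4% with the correction for GC content and length. None of the 18 called members changed direction. Changes of sign were limited to 9 members that were not called. KDM3B was at -0.01 under median-ratio scaling and -0.03 under quantile normalization, ALKBH8 at -0.03 and -0.01 under these and at -0.08 with the correction for GC content and length, PLOD3 at -0.01 under quantile normalization, and with the correction KDM5C was at 0.01 and P4HA3 at -0.03, each the same when the block was added. With a library left out, the ranges were -0.06 to 0.07 for KDM3B, -0.10 to 0.07 for JMJD1C, -0.13 to 0.07 for KDM4A, -0.03 to 0.24 for KDM4D, -0.05 to 0.03 for KDM5C, -0.07 to 0.08 for ALKBH6, -0.08 to 0.13 for ALKBH8 and -0.12 to 0.16 for P4HA3; the causes were not tested. TPM values hold no counts, so counting error could not be set apart from the spread between libraries, also for the 8 tested members with a mean under 5 TPM.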
